A study of Danio rerio with 18 samples.

Results

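Endothelial cells of control zebrafish embryos were set against whole trunk tissue of control embryos, both at 28 hours post-fertilization (hpf), to describe which transcripts the isolated cells enrich and which other cell types remain in them. The samples were chosen by their labels: the columns labelled control endothelial cells and the libraries labelled control input, 4 of the 18 samples of the series. Both groups carry the label of normal genotype; any agent injected into control embryos was not given in the sources used here. Control inputs hold unselected mRNA of the trunk that was sequenced beside N6-methyladenosine (m6A) immunoprecipitates. A further 6 libraries of the same age served for comparison. They are labelled mettl3 morphant endothelial cells, mettl3 morphant input and ythdf2 morphant endothelial cells. Morphants are knockdown embryos, here of the m6A writer gene mettl3 or the m6A reader gene ythdf2. Neither the isolation of the endothelial cells, nor a reporter line, nor the number of embryos was given in the sources used here. No label says that replicates came from separate clutches, so p-values reflect the spread between libraries alone, which may be technical.

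The endothelial columns hold 4.75 M and 4.67 M gene counts and the control inputs 57.2 M and 68 M, which leaves the endothelial side the shallower one. The endothelial columns were near copies, with a chi-square per degree of freedom of 1.04 over 11929 genes, against 338 over 22723 genes for the inputs. They were therefore summed and counted as 1 sample of 9421791 counts. All tests compare this 1 sample with the 2 inputs, the spread comes from the inputs alone, and the endothelial sample is assumed to vary like them. The endothelial libraries also differ from the inputs in sequencer (HiSeq2500 against HiSeq3000), in RNA isolation (an RNeasy Micro kit against isolated mRNA) and, for input 1, in read length (101 bp against 151 bp), per the labels, and these cannot be told apart from cell type. Levels are counts-per-million scaled by TMM (CPM), and a gene was called at an adjusted p below 0.05 in edgeR's quasi-likelihood test with Benjamini-Hochberg adjustment.

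The sample of endothelial cells differed broadly from the trunk. Of 23232 genes tested, 5142 (22.1%) were called higher and 10674 (45.9%) lower in endothelial cells, and 7416 were called in neither direction. By fitted fold, 1138 (4.9%) were called and at least 4-fold higher and 7780 (33.5%) called and at least 4-fold lower. Fitted folds of genes with no endothelial count go beyond what their counts can show. The 7780 therefore include genes not shown to be 4-fold lower. The median log2 fold over all genes tested was −0.63, with genes at 0 in endothelial cells entered at the limit that 3 counts allow and left out where that limit sets no fold. List counts given here are to be read against those percentages and that median. Symbols are printed as the gene name table gives them, some in capitals.

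Endothelial cells line all blood and lymph vessels. In the zebrafish trunk at this age they form the dorsal aorta, the cardinal vein and the vessels that sprout between the somites. VEGF receptors and ETS and SoxF transcription factors set up their identity, Notch signalling marks arteries, and a part of the aortic floor, the haemogenic endothelium, releases blood stem cells into the circulation.

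Of 3 genes taken as endothelial markers, flt1 and dll4 were strongly enriched and cdh5 was not. Flt1, a VEGF receptor that also acts as a decoy for the ligand, was at 151 CPM in endothelial cells (ENSDARG00000019371), against 6.37 and 6.18 CPM in inputs 1 and 2. Both inputs lay far below the endothelial sample, and flt1 had a log2 fold of 4.59 with an SE of 0.144 (edgeR, Benjamini-Hochberg adjusted p = 3.67e-06). Dll4, a Notch ligand of arterial and sprouting tip cells (ENSDARG00000070425), was at 178 CPM in endothelial cells, against 10.9 and 11.1 CPM in the inputs, a log2 fold of 4.02 ± 0.14. The cdh5 gene (ENSDARG00000075549), which encodes the VE-cadherin of endothelial junctions, was at 27.3 CPM in endothelial cells, against 23.7 and 26.2 CPM in the inputs. Its endothelial value lay just above both inputs and was not called (log2 0.13 ± 0.167, edgeR adjusted p = 0.503).

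General endothelial genes as a group were concentrated in the endothelial sample. Of 38 such genes tested, 29 were higher, 3 were lower and 6 were not called in endothelial cells, and 22 were at least 4-fold higher. The median log2 fold of the list was 3.15. Together the 38 genes took 0.460% of all endothelial gene counts (95% exact binomial interval 0.455% to 0.464%, counting error only), against 0.0576% and 0.0770% in the inputs. This is 6.83 times the mean share of the inputs. In bulk RNA, more cells of a type and more RNA per cell cannot be told apart.

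Of the transcription factors named here, all but ETS1 were higher. The SoxF factor sox18 was at 173 CPM in endothelial cells, against 5.44 and 5.77 CPM in the inputs (log2 4.95 ± 0.147). Its relative SOX7 reached log2 4.24. The ETS factors FLI1 and ERG reached log2 3.60 and 2.53, and the blood and vessel factors LMO2 and TAL1 3.98 and 2.72. ETS1 went the other way, at 2.37 CPM in endothelial cells against 6.75 and 8.24 CPM in the inputs (log2 −1.66, edgeR adjusted p = 0.00159).

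Surface proteins and receptors of the list differed in direction. Plvapb, a component of the diaphragms of endothelial pores, was at 778 CPM in endothelial cells, against 22.4 and 28.5 CPM in the inputs. The receptor partner ramp2, which makes the calcitonin receptor-like receptor respond to adrenomedullin, was at 386 CPM, against 12.01 and 13.96 CPM in the inputs. Both lay above both inputs, with fitted log2 folds of 4.93 for plvapb and 4.89 for ramp2. The receptor kinases of angiopoietin signalling rose less evenly, with log2 3.29 for tek and 1.14 for TIE1, and the VEGF receptor gene KDR had log2 1.13. The guidance receptor robo4 was lower, at 10.4 CPM in endothelial cells against 37.2 and 42.0 CPM in the inputs (log2 −1.93, edgeR adjusted p = 0.0001). Neither cd34 (80.4 CPM, against 79.6 and 88.3 CPM in the inputs) nor the adhesion molecule MCAM (42.5 CPM, against 48.9 and 47.5 CPM) was called. The tether factor gene exoc3l2a had no endothelial count, which makes it at least 6.92-fold lower than the inputs.

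**Figure D1:**
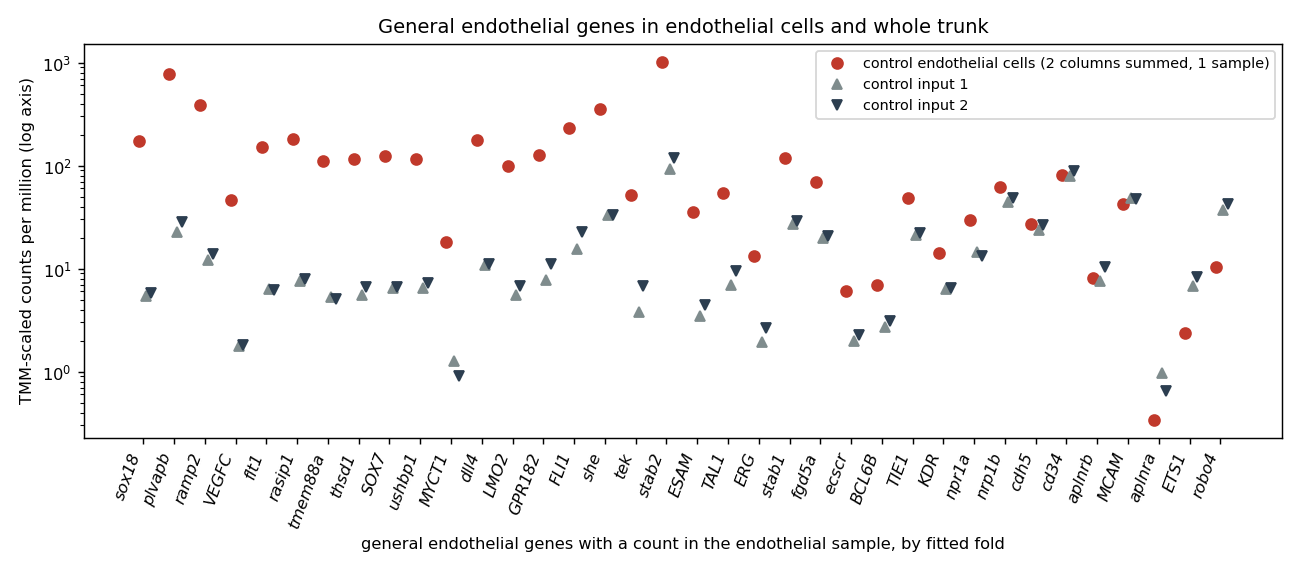
Level of each general endothelial gene with a count in the endothelial sample, as TMM-scaled counts-per-million on a log axis, in control endothelial cells (red circles, 1 sample) and in control inputs 1 and 2 (grey and dark triangles). From sox18 on the left down to nrp1b the endothelial value lies above both inputs, cdh5, cd34, aplnrb and MCAM lie at the level of the inputs, and aplnra, ETS1 and robo4 lie below.

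Arterial genes split in direction. Of 15 tested, 8 were higher and 4 lower, with a median log2 fold of 0.39, and the list took 0.0760% of endothelial counts against 0.0702% and 0.0935% in the inputs. The gap junction gene gja4 rose by log2 3.41. The Notch ligand dlc was at 176 CPM in endothelial cells, against 27.4 and 28.9 CPM in the inputs, and the Notch effector HEY2 at 44.5 CPM, against 5.65 and 5.41 CPM. TBX20, a T-box factor of heart and vessels, reached log2 2.32. The lower genes were led by Notch receptors. NOTCH1 (ENSDARG00000052094) had 4 endothelial counts, or 0.451 CPM, against 92.8 and 104 CPM in the inputs, a fitted log2 fold of −7.76. The SE of the fit, 0.304, does not cover the counting error of 4 counts, so the size of this fold is uncertain. The NOTCH1 symbol has no paralog letter, and the same ID stands for notch1a here and for notch1b in the neural progenitor list. Which paralog was counted is not known. NOTCH3 was at 9.47 CPM in endothelial cells, against 238 and 282 CPM in the inputs, and the effector HEY1 at 1.69 CPM, against 32.5 and 32.9 CPM. The ligands dll4 and dlc and the effector HEY2 were thus above both inputs, and NOTCH1, NOTCH3 and HEY1 far below both.

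Venous and lymphatic genes were higher throughout where called, with 9 of 12 higher, none lower (0), 3 not called and a median log2 fold of 2.02. Of these, stab1, stab2, VEGFC and TIE1, all higher, are also in the general endothelial list, as are dll4 and nrp1b of the arterial list. The lists are therefore not separate results, and the counts do not set vein against artery. The hyaluronan receptor lyve1b was at 125 CPM in endothelial cells, against 2.69 and 4.58 CPM in the inputs (log2 5.08 ± 0.276). The scavenger receptor stab2, which takes up hyaluronan and other circulating ligands, was at 1016 CPM in endothelial cells, against 92.8 and 118 CPM in the inputs, and its relative stab1 rose by log2 2.07. The lymphangiogenic growth factor gene VEGFC was at 46.1 CPM in endothelial cells, against 1.79 and 1.81 CPM in the inputs. CCBE1, which helps to process that growth factor, rose by log2 3.08, and the lysosomal protease gene LGMN by log2 1.97. The lineage factors PROX1 (log2 0.32) and NR2F2 (log2 0.18) were not called.

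Haemogenic and early blood genes were dominated by 1 transcript. MYB, a factor that blood stem cells need (ENSDARG00000053666), was at 3507 CPM in endothelial cells, against 9.70 and 14.4 CPM in the inputs. Its log2 fold was 8.18 ± 0.327 (edgeR adjusted p = 4.02e-06). Of 16 genes tested in the list, 8 were higher and 3 lower. Among the higher ones, LMO2 and TAL1 are also in the general endothelial list. The haemogenic list took 0.432% of endothelial counts, against 0.0326% and 0.0425% in the inputs. CEBPB, a bZIP factor of myeloid and stress responses, was at 576 CPM in endothelial cells, against 23.2 and 18.3 CPM in the inputs. The repressor gfi1aa reached log2 4.29 and GATA2 log2 2.02. The defining haemogenic factors RUNX1 and gata2b had no endothelial count and stood below 0.4 CPM in each input, so no fold can be given at this depth. GFI1B had no endothelial count either, at least 5.76-fold lower than the inputs, and the myeloid factor SPI1 was not called (2.37 CPM, against 1.29 and 1.63 CPM).

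Vascular signalling genes were mostly higher, with 16 of 27 higher and 8 lower. Of this list, tek, rasip1 and aplnra are also in the general endothelial list and klf2a in the immediate-early list, so these are not separate results. The sphingosine phosphate receptor gene S1PR1 was at 270 CPM in endothelial cells, against 34.7 and 40.8 CPM in the inputs. The flow-responsive factor klf2a rose by log2 3.19, the BMP targets ID1 and SMAD7 by log2 2.60 and 2.76, and the receptor gene calcrla, the partner of ramp2, by log2 2.07. The genes heg1 and CCM2 of the cerebral cavernous malformation pathway, which acts at endothelial junctions, were low. The heg1 gene had no endothelial count against 10.7 and 12.4 CPM in the inputs, and CCM2 was at 0.564 CPM against 21.8 and 19.4 CPM. The semaphorin receptor gene plxnd1 (log2 −3.99) and the apelin ligand gene APLN, with no endothelial count, were lower too. NOS1, a nitric oxide synthase gene, had no endothelial count against 224 and 188 CPM in the inputs and was at least 600-fold lower.

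Basement membrane genes were mostly lower, with 2 of 13 higher, 9 lower and a median log2 fold of −1.10. The perlecan gene HSPG2 was at 2.25 CPM in endothelial cells, against 253 and 247 CPM in the inputs. The laminin gene lamc1 fell by 6.59 and the collagen IV gene COL4A1 by 4.34 on the log2 scale. All 3 lay below both inputs by more than 10-fold.

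Immediate-early genes, which cells switch on within minutes of a stimulus, were mostly higher in endothelial cells. FOS, a subunit of the AP-1 transcription factor (ENSDARG00000031683), was at 3392 CPM in endothelial cells, against 2.90 and 2.03 CPM in the inputs. Its log2 fold was 10.44 ± 0.33 (edgeR adjusted p = 3.67e-06), the highest among the genes that have a symbol and at least 50 counts. The AP-1 partner JUNB was at 1155 CPM, against 3.73 and 3.14 CPM in the inputs, and JUN at 2140 CPM, against 57.3 and 54.9 CPM. Of 29 immediate-early and stress genes tested, a list that matched JUNB and JUN but no gene named FOS, 27 were higher and 1 was lower, with a median log2 fold of 4.07. Egr4 reached log2 7.96, the stress factor ATF3 7.17 and ier2b 6.88. BTG2, which restrains proliferation, was at 2238 CPM in endothelial cells, against 73.4 and 102 CPM in the inputs. Their summed share was 1.11% of endothelial counts, against 0.0745% and 0.0849% in the inputs. The cells were taken out of the tissue and the trunks were not, and this cannot be told apart from cell type.

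Other genes belonged to the 30 highest folds and were matched to no list. Both genes named SOCS3, feedback inhibitors of JAK-STAT signalling, were among them: ENSDARG00000025428 was at 1175 CPM in endothelial cells against 3.01 and 1.88 CPM in the inputs, and ENSDARG00000026611 at 826 CPM against 9.94 and 8.46 CPM. The immediate-early list names socs3a and socs3b, but neither name found an ID. The leukocyte adhesion molecule sele, an E-selectin gene of activated endothelium, was at 553 CPM, against 5.09 and 5.67 CPM in the inputs. The chemokine cxcl18b rose by log2 6.50 and CH25H, which makes 25-hydroxycholesterol, by log2 7.96. A muscle gene, tcap, was in no list either, and 2 pancreas genes of the endoderm list were also in the 30 highest. Tcap, a titin-binding protein of the muscle Z-disc, was at 854 CPM in endothelial cells against 4.41 and 3.96 CPM in the inputs. The insulin gene ins was at 31.0 CPM against 0.572 and 0.761 CPM, and pdx1, a factor of pancreatic beta cells, at 8.002 CPM against 0.129 and 0.197 CPM.

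**Figure D2:**
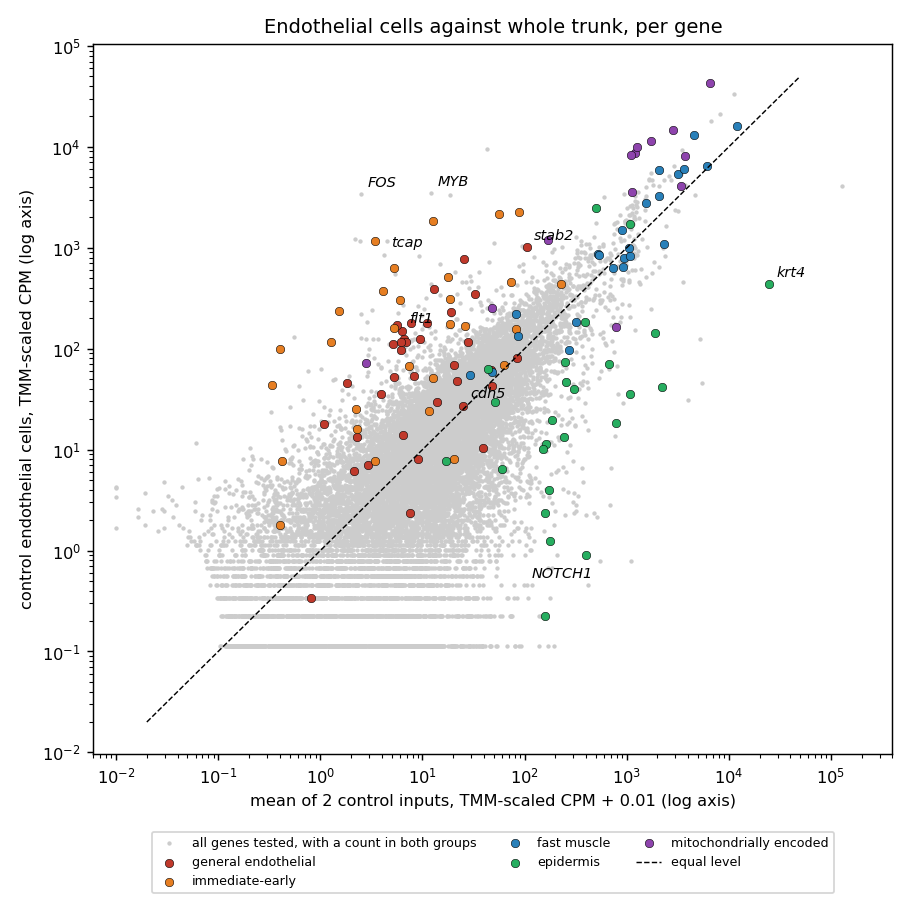
Level of every gene tested with a count in endothelial cells, as TMM-scaled counts-per-million in control endothelial cells (vertical log axis) over the mean of 2 control inputs plus 0.01 (horizontal log axis), with 5 gene lists coloured and a dashed line of equal level. General endothelial, immediate-early and mitochondrially encoded genes lie mostly above the line, with exceptions in each list. Epidermal genes lie mostly below it, and fast muscle genes around and above it at high levels.

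Genes with no endothelial count were more frequent than the depth alone gives. In endothelial cells 17093 genes had no count, against 9262 expected at that depth from the input levels. Of 9264 genes at 10 CPM or more in both inputs, 613 (6.62%) had no endothelial count, although the least abundant of them would give 98.3 counts at input level. The mettl3 morphant endothelial pool lacked 1370 and the ythdf2 morphant pool 1197 of the 9264, and 378 were at 0 in all 3 endothelial pools. No gene of the 9264 (0 genes) was at 0 in either mettl3 morphant input. Fold limits of genes with no count, such as heg1 and NOS1, share this property, and its part in their result was not tested.

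Apolipoprotein genes were among the lowest. The apolipoprotein gene apobb.1 (ENSDARG00000022767), which packages yolk lipid for export, had no endothelial count against 2171 and 2307 CPM in the inputs, at least 6656-fold lower. APOB was at least 1577-fold lower and apoa2 at least 1264-fold lower. Of 23 endoderm, liver and gut genes tested, 15 were lower and 4 higher. That list took 0.0151% of endothelial counts against 0.390% and 0.508% in the inputs, which is 0.0336 times the inputs' mean. Of 11 yolk syncytial genes none was higher (0) and 7 were lower. FREM2, a basement membrane protein of the fin fold, also had no endothelial count, against 183 and 181 CPM in the inputs.

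Epidermal genes were depleted, with 3 exceptions. Of 26 tested, 23 were lower, 3 were higher and 19 were at least 4-fold lower by fitted fold, with a median log2 fold of −3.81. Their share was 0.512% of endothelial counts, against 3.38% and 4.14% in the inputs. The surface keratin krt4 was at 440 CPM in endothelial cells, against 24760 and 24840 CPM in the inputs, and krt5 and cyt1 were lower by 3.72 and 5.74 on the log2 scale. Krt8 was at 1712 CPM in endothelial cells, against 1026 and 1133 CPM in the inputs (log2 0.67, edgeR adjusted p = 0.0322), and was not called with total-count scaling (adjusted p = 0.307, edgeR) or without either input. The fits without an input also held the morphant pools and inputs, and in that larger fit krt8 was not called with both control inputs either. The krt8 partner krt18a.1, singled out after its values were seen, was at 2463 CPM, against 516 and 484 CPM. The claudin gene cldnb of epithelial junctions, likewise named after its value was seen, had log2 0.52 and lost its call with total-count scaling (edgeR adjusted p = 0.436). The paired simple keratins krt8 and krt18a.1 thus lay above both inputs and the other epidermal keratins named below both.

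Fast muscle had the largest share of endothelial counts among the lists of other tissues. Its 23 genes took 6.41% of endothelial counts, against 4.60% and 4.66% in the inputs, 1.38 times the inputs' mean. Of them 8 were called higher, 3 lower and 12 in neither direction. The number called higher ranged from 3 with total-count scaling to 12 with DESeq2 or with no filter. The tropomyosin gene tpma was at 13230 CPM in endothelial cells, against 4929 and 4219 CPM in the inputs (log2 1.53, edgeR adjusted p = 0.00542). The calcium pump gene atp2a1 was at 16160 CPM, against 12030 and 12110 CPM (log2 0.42, not called), and the creatine kinase gene ckmb at 6096 CPM, against 3768 and 3526 CPM (log2 0.74, edgeR adjusted p = 0.0597). The myosin heavy chain gene myhz1.1 was at 6470 CPM, between the input values of 8222 and 4051 CPM.

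Muscle precursor genes were mostly lower and slow and heart muscle genes were mixed. Of 13 muscle precursor genes tested, 8 were lower and 2 higher. MYOD1, the factor that commits cells to muscle, was at 18.3 CPM in endothelial cells, against 54.7 and 52.6 CPM in the inputs. MEF2D, a muscle transcription factor gene, fell by 2.55 and CDH15, the cadherin gene of muscle precursors, by 4.16 on the log2 scale. MYF5 and MYOG, which specify and differentiate muscle cells, were the 2 higher ones (log2 1.11 and 1.37, named after their values were seen). MYOG lost its call in the fit with morphant pools and inputs, with both control inputs or without either. EYA1, a coactivator in muscle precursors, was at 89.9 CPM, against 70.21 and 80.6 CPM (not called). The slow muscle light chain gene myl10 was at 272 CPM, against 1085 and 999 CPM, within a list of 7 slow muscle genes of which 2, named after their values were seen, were higher, PRDM1 (log2 1.06) and TNNT1 (log2 1.63, not called without either input), and 3 lower. Of 7 heart muscle genes 5 had no endothelial count, while actc1a, an actin gene that embryonic skeletal muscle also expresses, was at 3186 CPM against 733 and 465 CPM (log2 2.41; without input 2 it was 2.11 and not called). The fast muscle transcripts named were thus at or above the mean level of the trunk, MYOD1, MEF2D, CDH15 and myl10 lay below both inputs, and MYF5, MYOG, EYA1, PRDM1 and TNNT1 above both.

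The blood cell genes that found an ID left a small and mixed trace. Of 33 red blood cell names 21 were matched, and of 34 myeloid names 25. Globin genes such as hbbe1.1 and hbba1 and myeloid genes such as mpx and mpeg1.1 were not, so the values here leave them out. Of 20 red blood cell genes tested, 5 were higher, 7 lower and 8 not called, and their share was 0.0388% in endothelial cells against 0.0798% and 0.0960% in the inputs. The embryonic globin hbae3 was at 96.9 CPM in endothelial cells, against 199 and 209 CPM in the inputs, and hbbe3 at 59.2 CPM, against 179 and 206 CPM. The membrane skeleton gene SPTB fell by 3.03 on the log2 scale. The erythroid factor gata1a, singled out after its values were seen, was at 12.7 CPM, against 2.03 and 2.26 CPM. Of 25 myeloid genes 8 were higher and 8 lower. IRF8, a macrophage factor, and lyz, a lysozyme gene of granulocytes and macrophages, were singled out after their values were seen. IRF8 was at 16.3 CPM in endothelial cells against 0.498 and 0.709 CPM in the inputs. Lyz had 3 endothelial counts, a log2 fold of −5.05 with a counting interval from −7.33 to −3.50. Among genes that myeloid cells share with other tissues, CEBPD was higher (log2 3.83) and apoeb lower (log2 −3.27).

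Connective tissue and neural crest genes were mostly lower, and neuronal genes were near the level over all genes. Of 21 fibroblast and mesenchyme genes none was higher (0) and 17 were lower. The collagen I genes COL1A1 and COL1A2 fell by 1.37 and 1.65 on the log2 scale, and col1a1a was at 1643 CPM in endothelial cells against 2274 and 2536 CPM in the inputs (not called). PDGFRA, a mesenchyme receptor gene singled out after its values were seen, had no endothelial count and was at least 83.9-fold lower. Of 13 notochord genes 10 were lower and 1 higher and of 8 ionocyte genes 7 were lower. Of 13 pronephros genes 6 were lower and 1 higher, a share lower at that over all genes tested (45.9%). Of 21 neural crest and pigment genes 16 were lower and 2 higher. The crest factors SOX10 and TFAP2C fell by 2.45 and 2.37 on the log2 scale, while the melanosome gene pmela (99.96 CPM, against 85.0 and 95.0 CPM) was not called. Of 23 neuronal genes 7 were higher and 11 lower, near the shares over all genes. By fitted fold 10 were at least 4-fold lower and 1 at least 4-fold higher, and 5 had no endothelial count. Counts of the list made up 1.07 times the inputs' mean share, with a large part of them from tubb5. The RNA-binding protein gene ELAVL3 was at 18.6 CPM in endothelial cells against 158 and 174 CPM in the inputs, and the tubulin gene tubb5 at 479 CPM against 147 and 231 CPM.

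**Figure D3:**
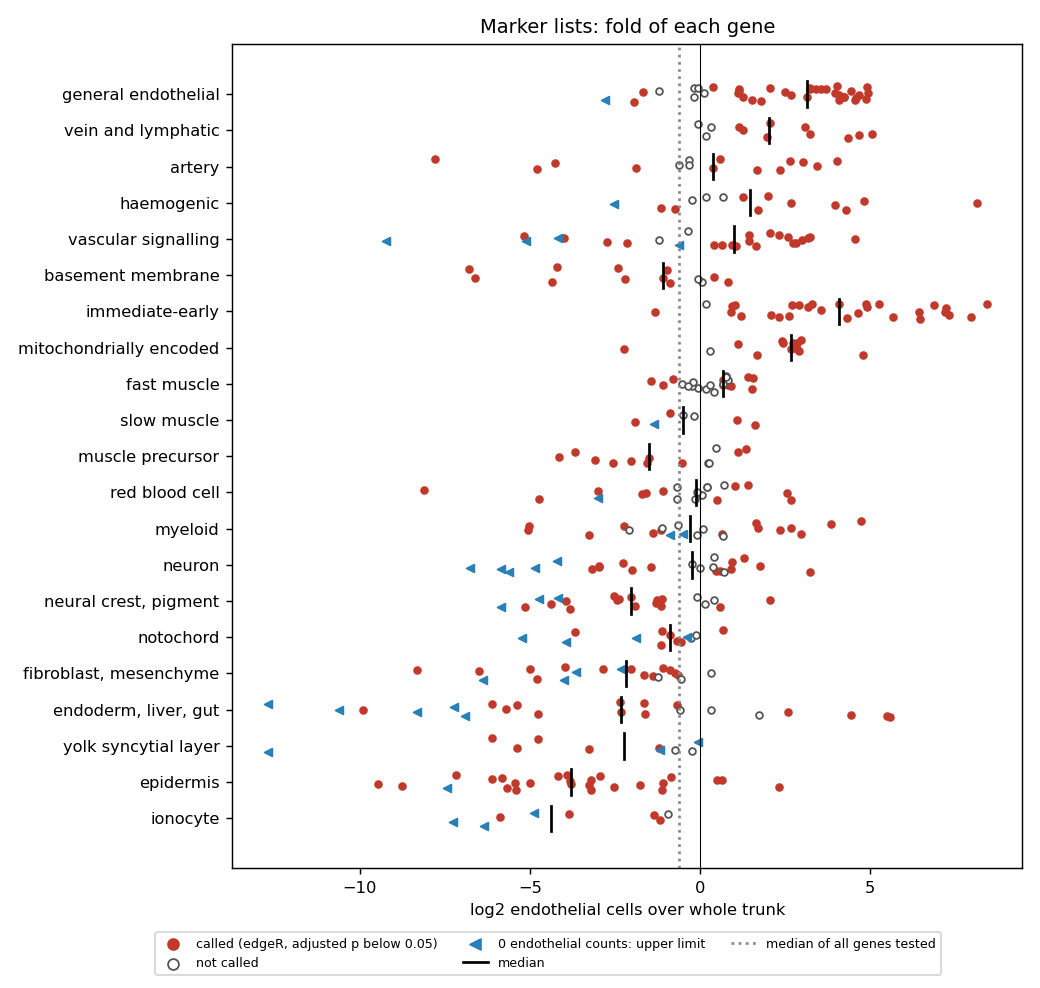
Log2 fold of endothelial cells over whole trunk for each gene of 21 marker lists, with called genes filled red, uncalled genes open, upper limits of genes with no endothelial count as blue triangles, list medians as black bars and the median of all genes tested as a dotted line. The medians of the general endothelial, venous, immediate-early and mitochondrially encoded lists lie right of 0. Those of the epidermal, ionocyte, yolk and liver lists lie left, and that of fast muscle lies right of 0, at 0.67.

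The 13 mitochondrially encoded genes of the list, all protein-coding, took a larger part of the endothelial library. They made up 10.7% of endothelial counts, against 2.35% and 2.58% in the inputs, 4.33 times the inputs' mean. The list holds no ribosomal RNA gene, so it does not give the share of all mitochondrial RNA. The gene of the largest input share (ENSDARG00000080337), outside this list, went the other way. It took 0.385% of endothelial counts, against 19.4% and 5.68% in inputs 1 and 2. Of 13 genes 11 were higher and 1 was lower. The cytochrome oxidase gene MT-CO1 was at 42630 CPM in endothelial cells, against 6884 and 6183 CPM in the inputs (log2 2.71 ± 0.43), and the cytochrome b gene MT-CYB reached log2 2.40. The lower one, MT-ND3, a complex I subunit gene, was at 164 CPM against 816 and 760 CPM. The morphant endothelial pools had a like share, with 11.2% under the mettl3 label and 10.5% under the ythdf2 label. The RNA preparation differed between endothelial cells and trunk, and it cannot be told apart from cell type here.

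Hox genes, whose paralogue number follows position along the body from head to tail, differed in direction. Of 36 tested, 19 were higher and 8 lower. In groups 1 to 8, a split chosen after the values were seen, 15 of 19 were higher and 1 was lower, with a median log2 fold of 0.92. In groups 9 to 11, 4 of 11 were higher, namely hoxa9b, HOXC9, hoxa10b and hoxb10a (named after their values were seen), 2 were lower and 5 were not called, with a median of 0.27. In groups 12 and 13, 5 of 6 were lower and none was higher (0), with a median of −2.96. HOXB3 was at 223 CPM in endothelial cells, against 67.3 and 73.3 CPM in the inputs. HOXB9 was at 58.7 CPM, against 168 and 141 CPM. The exception among low numbers was hoxc1a, at 55.7 CPM against 152 and 120 CPM. With total-count scaling 10 Hox genes were higher and 8 lower.

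**Figure D4:**
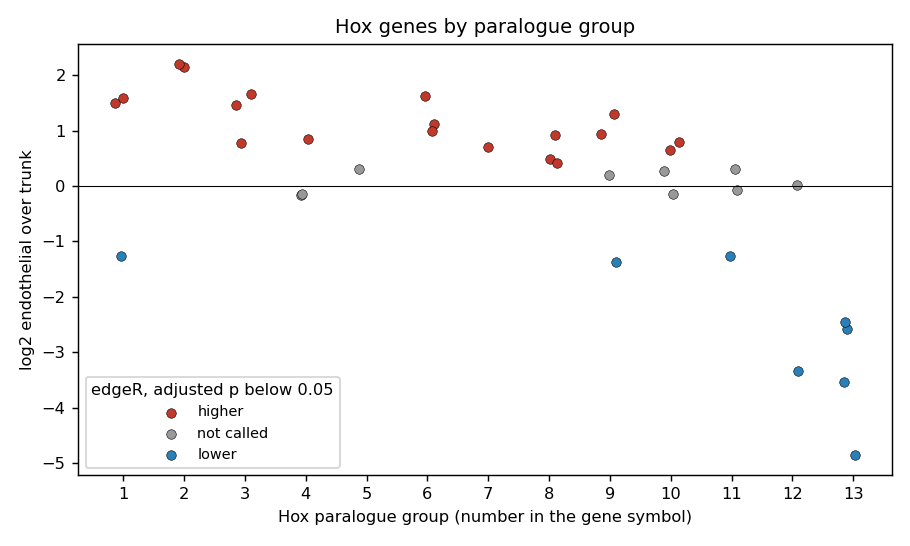
Log2 fold of endothelial cells over whole trunk for 36 Hox genes against the paralogue group number in their symbol, coloured by call, with genes of no endothelial count at their upper limit. Called genes of groups 1 to 8 lie above 0 except hoxc1a, and 5 of 6 genes of groups 12 and 13 lie below.

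The same comparison in embryos labelled mettl3 morphant, a knockdown of the enzyme that writes m6A, shares no library with the control one. There 4238 of 22071 genes tested (19.2%) were higher and 11562 (52.4%) lower in the endothelial pool, again 1 sample against 2 inputs. Of 21876 genes tested in both, 2712 were higher in both, which is 54.3% of the control list and 64.8% of the morphant list. Lower in both were 8551, 80.2% of the control list and 74% of the morphant list. A further 967 genes were higher in control and lower in morphant cells, and 443 were lower in control and higher in morphant cells.

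Endothelial genes held in that second comparison and muscle did not. Of 37 general endothelial genes tested there, 31 were higher and 1 was lower, and cdh5 was again at the level of the inputs (25.3 CPM, against 26.6 and 26.6 CPM). The share of general endothelial genes was 1.18% in the mettl3 and 1.24% in the ythdf2 morphant pool, above the 0.460% of the control pool. Of 23 fast muscle genes none was higher (0) and 22 were lower, and their share was 0.407% in the mettl3 and 1.58% in the ythdf2 morphant pool. Of 29 immediate-early genes 20 were higher and 4 lower. MYB was at 3.10 CPM in mettl3 morphant endothelial cells, against 17.97 and 12.5 CPM in their inputs (log2 −2.29), so the direction was opposite to that in the control pool. The high MYB level and fast muscle share of the control pool rest on 1 sample, and the part of the muscle transcripts in the other results was not tested.

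**Figure D5:**
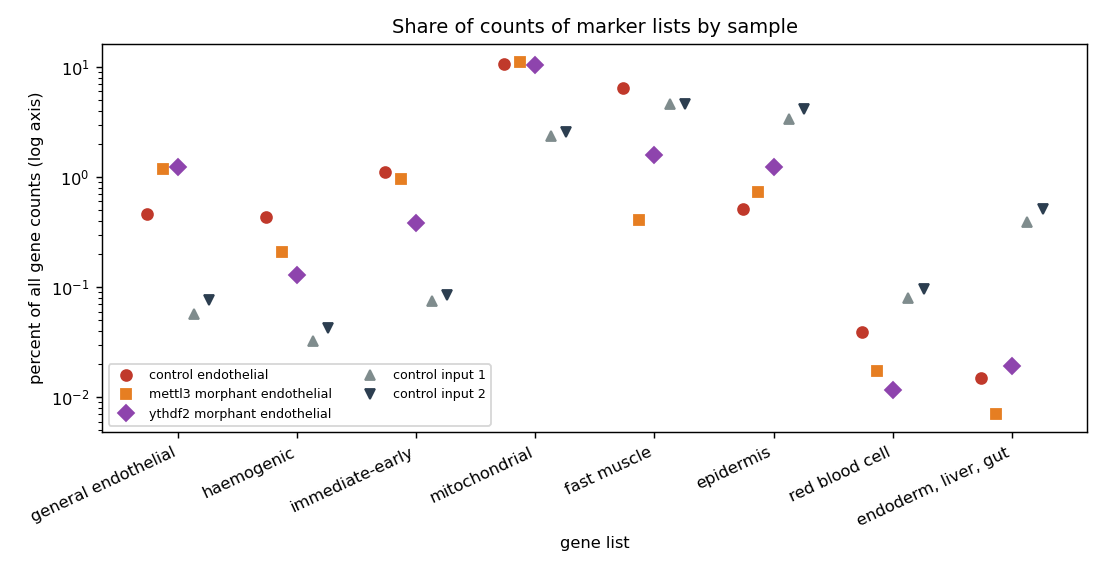
Percent of all gene counts taken by 8 gene lists, on a log axis, in the control, mettl3 morphant and ythdf2 morphant endothelial pools and in control inputs 1 and 2. General endothelial, immediate-early and mitochondrial shares exceed the inputs in all 3 pools, the epidermal, red blood cell and liver shares lie below the inputs in all 3, and the fast muscle share exceeds the inputs in the control pool alone (6.41% against 4.60% and 4.66%).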

How the data were processed

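The authors deposited raw read counts per gene, made with TopHat2 2.0.9 and HTSeq (0.5.3p9 for endothelial libraries), per the submitters' processing notes. Genome build, annotation release and strand setting were not given in the sources used here, so overlapping genes, antisense genes and paralogs remain uncertain. Each table lists 33737 Ensembl IDs, of which 21939 (65%) have a symbol. HTSeq's 5 summary rows were dropped; reads outside genes were 9.72% to 9.74% of endothelial and 12.5% to 13.4% of control input reads.

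Endothelial columns were summed and compared with the control inputs in edgeR 4.0.16 (R 4.3.3; filterByExpr, TMM, quasi-likelihood test, Benjamini-Hochberg), with DESeq2 1.42.0 as an alternative; the fold standard error was derived from the test statistic. The fit with morphant pools and inputs gave the difference between labels. Folds with 0 counts use a floor of 3 counts over the endothelial sample. In simulated data (22752 genes, 200 changed), 38% of 2-fold and 89% of 4-fold changes were recovered and 6.62% of calls were false. The simulated endothelial sample was given the spread fitted from the inputs, and far fewer genes changed than were called in the data. These rates therefore do not give the false share of the calls reported here.

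The 37 lists hold 966 names, which matched 652 distinct IDs, 89 of the matches made without the paralog letter; lists overlap. Named genes are the 30 highest and 30 lowest folds, the endothelial lists, up to 4 abundant members of other lists and the markers. Members and lists were chosen with earlier results of these data known. Count tables of other samples were not used.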

Additional observations from a re-analysis of the deposited data

Results flagged for a closer look

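For 59 of the 126 genes named in the text, the endothelial over input fold differed between embryos labelled mettl3 morphant and control (edgeR interaction in the fit of all pools and inputs, Benjamini-Hochberg adjusted p below 0.05). This background is high, since 7984 of 22892 genes differed. Some of the genes, such as MYB, tcap, ins and pdx1, were among the 30 highest control folds, and others were singled out after their values were seen. For them the difference reuses the control values that chose them, which favours a lower morphant fold where the control fold was high. Values are log2 folds, morphant minus control, each with 1 endothelial sample per label.

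Vessel genes were among those with the larger fold under the morphant label. The differences were 2.92 for gja4, 2.52 for ERG, 2.33 for tek, 2.19 for robo4, 1.94 for TIE1, 1.66 for LGMN, 1.56 for HEY2, 1.34 for sox18 and 1.22 for MCAM. Smaller ones were 1.1 for NOTCH3, 1.04 for S1PR1, 1.03 for calcrla, 0.94 for VEGFC, 0.93 for ramp2, 0.92 for SOX7, 0.87 for flt1 and 0.7 for dlc. Beyond vessel genes, PRDM1 differed by 1.18 and hoxa9b by 1.13. The gene exoc3l2a, with no control endothelial count, differed by at least 1.01. Of blood-related factors, SPI1 differed by 6.21, gfi1aa by 1.85, LMO2 by 1.33 and GATA2 by 0.88.

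The largest fitted difference in the other direction was that of MYB, at −10.56. Muscle genes had −9.74 for EYA1, −4.98 for atp2a1, −4.73 for tcap, −4.11 for tpma, −3.82 for myl10, −3.79 for actc1a, −3.78 for ckmb and −3.61 for myhz1.1. Red blood cell genes had −7.03 for SPTB, −2.09 for hbbe3 and −1.88 for hbae3. Others had −6.78 for ins, −2.7 for TFAP2C, −2.06 for krt4, −2.04 for MT-ND3, −1.67 for NEUROD1, −1.61 for lamc1, −1.57 for SOX10, −1.42 for col1a1a, −1.04 for twist1a and −0.96 for HOXB3. The differences of EYA1 and SPTB imply morphant endothelial levels near the lowest that can be counted. Their sizes, and the place of EYA1 among the largest, are therefore uncertain.

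Where the morphant pool had no count the difference is a limit. Of the 9264 genes at 10 CPM or more in both control inputs, the mettl3 morphant pool lacked 1370 and the control pool 613. The part of such missing counts in these limits was not tested. The difference was at most −7.95 for pmela, −7.58 for cldnb, −6.15 for PROX1, −5.79 for MYOD1, −5.69 for MYF5, −5.64 for IRF8, −5.62 for gata1a, −5.24 for CCBE1, −4.69 for gcga, −4.68 for pdx1, −3.77 for tfa, −3.61 for CDH15 and −3.06 for TNNT1.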

How the results depend on the processing

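Over 14 alternatives, 1717 of 1757 values of 126 named genes kept their direction and side of the threshold. With total counts in place of TMM, genes called higher fell to 3290 and the fitted median log2 fold of all genes was −1.35 instead of −1.22, and higher calls made up 23.7% of all calls instead of 32.5%. No paired analysis was possible because the endothelial columns count as 1 sample. Fits without 1 control input also held the morphant pools and inputs, so they differ from the main fit in more than that input. In that larger fit krt8, MYOG and cldnb were already not called with both control inputs. Without 1 column or input, higher calls ranged from 3775 to 4620 and lower calls from 8750 to 9819. Uncalled values that changed sign were cdh5 (−0.0124 with total counts, −0.0863 to 0.225 without 1 column or input), cd34 (0.0248 with DESeq2 or its size factors, −0.117 to 0.0075 without 1) and myhz1.1 (−0.0167 with total counts, −0.35 to 0.75 without 1); the cause was not tested. The uncalled gene ckmb was called higher under 6 alternatives, and atp2a1 (higher) and col1a1a (lower) were called with DESeq2. The gene gata2b, with no endothelial count, was called lower under 3. Higher calls were lost under 6 alternatives for cldnb, 4 for krt8, 3 for MYOG and TNNT1, 2 for HOXC9 and hoxa10b and 1 for hoxb10a and actc1a. Leaving the gene with the largest share out of the denominator gave endothelial shares of 10.71% for mitochondrial and 6.44% for fast muscle genes, and mean input shares of 2.83% mitochondrial, 5.33% fast muscle, 0.238% notochord, 0.135% Hox, 0.100% red blood cell, 0.0912% immediate-early and 0.0810% vascular signalling. Either endothelial column alone gave a fast muscle share of 6.39% to 6.43%. Depth limits the endothelial side: a gene with no count there gives at most a limit.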

Other observations

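Beside ins and pdx1, other genes of hormone-producing cells were higher. The glucagon gene gcga was at 3.83 CPM in endothelial cells against 0.0922 and 0.236 CPM in the inputs. The endocrine and neural factor NEUROD1 was at 74.6 CPM against 7.20 and 8.45 CPM. Both were called higher in edgeR, and both were singled out after their values were seen. Among 10 sclerotome and cartilage genes tested, 5 were higher and 3 lower. The mesenchyme factor twist1a was at 90.1 CPM in endothelial cells against 16.42 and 16.35 CPM in the inputs, and FOXC1, a forkhead factor of mesoderm and vessels, at 98.1 CPM against 17.7 and 20.2 CPM.

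Proliferation genes were modestly higher, with 26 of 46 cell cycle genes called higher and 10 lower at a median log2 fold of 0.62. Ribosomal protein genes divided, with 18 of 59 higher and 19 lower. Among p53 target genes 2 of 12 were higher and 1 lower. Of 17 genes of the m6A machinery 2 were higher and 7 lower. These list counts too are to be read against the shares over all genes tested, 22.1% higher and 45.9% lower.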
